A study of Mus musculus with 16 samples.

Results

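The 8 libraries described here were made from regulatory T cells of Sh2d2a knockout mice (KO). They are the 6 libraries of stimulated cells, pooled over time, and the 2 libraries of unstimulated cells, out of 16 libraries in the series. The members were chosen by their labels: knockout genotype, with 2, 8 or 24 h of stimulation on one side and no stimulation (0 h) on the other. Cells were sorted from spleen as CD4-positive with high CD25, from mice of the C57BL/6 strain. Stimulated cells were cultured on plates coated with anti-CD3 antibody (clone 145-2C11) at 1 µg/ml. The 4 knockout groups are thus KO at 0 h without antibody and KO at 2, 8 and 24 h with it, with 2 libraries each. The other 8 libraries are the same 4 conditions in wild-type mice (WT) of that strain, matched for sex and age, and they serve here as the comparison. The sources used here do not give the knockout allele, the ages, or whether replicate libraries were made from different mice. The p-values below therefore rest on the scatter of these libraries, part or all of which may be technical. No library held cells cultured without antibody, so time in culture and stimulation cannot be told apart.

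Regulatory T cells restrain other immune cells, and they depend on signals from the T-cell receptor for their suppressive state. Antibody to CD3 crosslinks the receptor complex, which makes the kinase Lck phosphorylate the CD3 chains and starts a rapid programme of transcription. Sh2d2a encodes the T-cell-specific adaptor protein TSAd, which binds Lck and is itself made in larger amounts by activated T cells. Pooling the times of stimulation asks which RNAs were at a different level on average over the times on antibody, in cells that lack this adaptor.

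The rows of the deposited tables cannot be read as genes. Of 19 marker genes looked up by their listed identifiers, 4 were at 0 in all 8 KO libraries (Gapdh, B2m, Rplp0 and Ptprc), although every T cell makes these RNAs. Foxp3, the transcription factor that defines regulatory T cells, had a median normalised count of 0.377 and a highest of 2.53 in its listed row. For Cd4, a marker used in the sort, the listed row had a median of 0 and a highest of 1.27, while that listed as the B-cell gene Cd79a had a median of 1017. The row listed as Sh2d2a was at 0 to 4.22. Of the 19 markers, 10 had a median under 10. The rows listed as Ctla4, Cd3e and Eef1a1 had higher medians, of 201.6, 197.2 and 743. Those listed as the B-cell gene Ms4a1 and the macrophage gene Csf1r had 200.2 and 371, so such levels do not show a right label. The identity of the cells and the loss of the targeted gene could therefore not be checked, and each row is described below as an unnamed feature. Listed identifiers are printed for 4 features only to mark their rows.

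The values are normalised counts, that is, reads divided by a factor for each library. The KO libraries held 2065662 to 5907998 reads, and 1 read was worth 0.753 to 2.18 normalised counts. Of 27802 features, 8583 were at 0 in all 8 KO libraries and 7251 others had too few reads. Tests were made on the 11968 features that reached a value of 10 in 2 or more of the 8 KO libraries, and 10000 of these reached 10 in all 8. Because there are 6 stimulated and 2 unstimulated libraries, the filter let in 487 features with no 0 h library at 10 and only 13 with no stimulated library at 10. Just inside the limit, 173 features had a second-highest value of 10 to 11, with a median level of 6.37 at 0 h and 7.24 in stimulated cells. Just outside it, 189 features had a second-highest value of 9 to 10, with medians of 6.58 and 6.38.

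Stimulated KO cells differed from unstimulated KO cells in 2 of the 11968 features, both higher. This is 0.0167% of the features tested, by limma on log2(normalised count + 2) with the 3 times weighted equally and an adjusted p (Benjamini-Hochberg) under 0.05. No feature was called lower by limma. At an unadjusted p under 0.05 there were 783 features or 6.54%, of which 430 were higher and 353 lower. On reads recovered from the values, edgeR called 1 feature higher and 1 lower, and DESeq2 called 3 higher and 3 lower. The count changed when single libraries were left out. Without either library of the unstimulated pair, which leaves 1 library at 0 h, features were called in both directions. Leaving out KO 2 h replicate 2, KO 8 h replicate 1 or KO 8 h replicate 2 gave 7, 4 and 5 calls, and leaving out either WT library of 2 h, which enters through the shared estimate of spread, gave 1.

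The feature with the strongest evidence, called R1 here (row listed as ENSMUSG00000024112), rose on antibody and stayed high. Its normalised counts in KO were 133.6 and 136.5 before stimulation, then 420 and 271.2 after 2 h, 235.8 and 297.5 after 8 h, and 262.3 and 282.5 after 24 h. All 6 stimulated libraries lay above both unstimulated ones, and the lowest of them was 1.73 times the higher 0 h value. The mean went from 135 ± 2.1 at 0 h (SD, n = 2) to 295 ± 64.7 over the stimulated libraries (SD, n = 6). The pooled log2 change was 1.09 ± 0.14 (SE; limma adjusted p = 0.000221), or 2.13-fold. The fitted log2 changes at the separate times were 1.31, 0.96 and 1.00, and the joint test of differences among 2, 8 and 24 h was not passed (limma adjusted p = 0.875). R1 passed the test under every alternative that was run, with adjusted p of 5.97e-06 to 0.0139.

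The other called feature, R2 (row listed as ENSMUSG00000029723), also rose. It had 178.8 and 260.4 before stimulation, then 402.9 and 308.9 after 2 h, 565.4 and 422 after 8 h, and 511.1 and 567.6 after 24 h. The groups did not overlap, but the lowest stimulated value was only 1.19 times the higher 0 h value. The mean went from 220 ± 57.7 (SD, n = 2) to 463 ± 103 (SD, n = 6), a pooled log2 change of 1.06 with an SE of 0.17 (limma adjusted p = 0.0344). Its fitted change was 0.70 at 2 h, with 1.17 and 1.31 at the later times, and the times were not told apart by the joint test (limma adjusted p = 0.699). The call of R2 was lost in 12 of 32 alternatives, among them edgeR (adjusted p = 0.164) and the fit of the 6 stimulated libraries as a single group (limma adjusted p = 0.645).

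**Figure D1:**
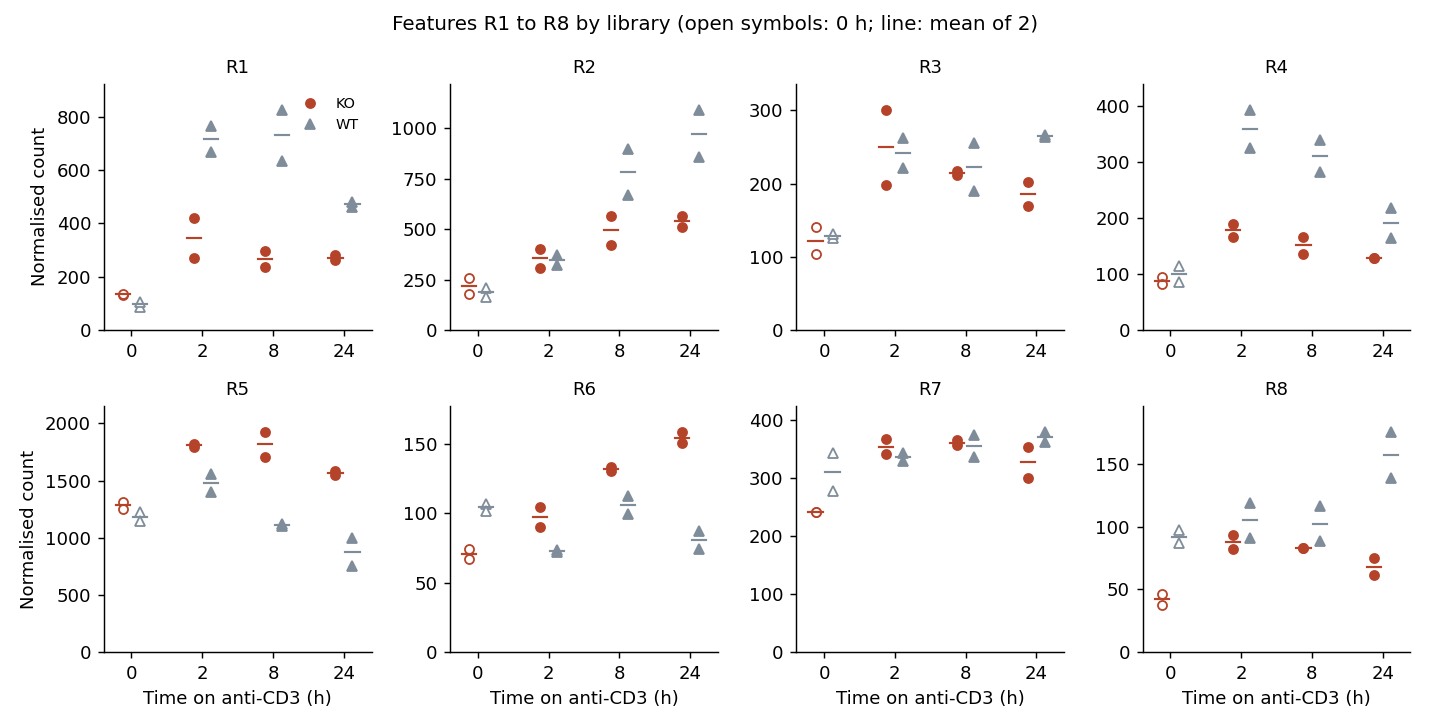
Normalised counts (vertical axes, from 0) of the 8 features R1 to R8 by hours on anti-CD3, with a point for each library, KO as circles and WT as triangles, open symbols for 0 h and a line for each group mean. In every panel the 6 stimulated KO libraries lie above both KO libraries of 0 h, and in R1 the stimulated WT libraries, at 463 to 825, lie above all KO libraries.

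After these, 6 features are named R3 to R8 in the order of their p-values, among features whose 6 stimulated libraries all lay above both unstimulated ones and whose mean over the 8 libraries was at least 20. None passed the limma test over all 16 libraries, with adjusted p of 0.0684 to 0.153. R3 had 140.2 and 104.2 at 0 h, against 300.2 and 198.1 after 2 h, 211.8 and 217.4 after 8 h, and 170 and 201.5 after 24 h. Its pooled log2 change was 0.81 ± 0.16 (SE; limma adjusted p = 0.0684). R3 was called with the filter at 50 (limma adjusted p = 0.0376). In 28 of 32 alternatives it was not called, among them edgeR (adjusted p = 0.164) and DESeq2 (adjusted p = 0.086). Its pooled change was 1.02 with KO 0 h replicate 1 left out and 0.60 with KO 0 h replicate 2 left out. R4 had 94.9 and 81.6 at 0 h and 129.2 to 189.5 in the stimulated libraries, with its highest values at 2 h. R3, R4 and R8 had their largest fitted change at 2 h, as R1 did, and R6 had its largest at 24 h, as R2 did.

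R5 had the highest normalised counts of R1 to R8 and the smallest standard error. It had 1310.1 and 1255.5 before stimulation, then 1820.4 and 1795.3 after 2 h, 1923.3 and 1706.6 after 8 h, and 1582.6 and 1548.3 after 24 h. The stimulated libraries were thus 1.18 times or more above the higher 0 h value, and the pooled log2 change was 0.43 ± 0.09 (SE; limma adjusted p = 0.151). R5 was called by DESeq2 (adjusted p = 0.0346) and by limma on the 8 KO libraries alone (adjusted p = 0.0258, or 0.0417 with these as 2 groups). R6 had 67.3 and 74.6 before stimulation, then 90.2 and 104.7 after 2 h, 133.2 and 130.2 after 8 h, and 150.3 and 158.4 after 24 h, so that each later pair lay above the one before it. Its differences among the stimulated times did not pass the joint test (limma adjusted p = 0.699). R7 had 241.7 and 240.7 at 0 h against 300.5 to 366.4, and R8 had 37.5 and 46.4 against 61.6 to 93.6.

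In the direction of lower levels no feature was called by limma, and 8 features named F1 to F8 were taken in order of p among those whose 6 stimulated libraries all lay below both unstimulated ones. Their limma adjusted p was 0.0684 to 0.467. F1 (row listed as ENSMUSG00000040850) had 250.5 and 77.4 before stimulation, then 35.4 and 54.2 after 2 h, 24 and 44.3 after 8 h, and 32 and 48.1 after 24 h. The unstimulated libraries differed from each other by more than the lower of them did from any stimulated library. The pooled log2 change of F1 was -1.81 ± 0.35 (SE; limma adjusted p = 0.0684). edgeR and DESeq2 called it (adjusted p = 0.011 and 0.000136), and with KO 0 h replicate 1 left out its change was -0.98, with no call.

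F2 (row listed as ENSMUSG00000032125) had steadier values. It had 413.9 and 385.6 before stimulation, then 240.8 and 271.2 after 2 h, 294.7 and 273.2 after 8 h, and 262.3 and 316.7 after 24 h, a pooled log2 change of -0.53 ± 0.12 (SE; limma adjusted p = 0.153). F3 had 754.9 and 831.8 at 0 h and 571.5 to 640.3 in stimulated cells. F4 had 1098.2 and 919.1 against 699.9 to 895.1, so its groups nearly touched. F5 had 451.4 and 382.8 against 281.6 to 325.3, and F8 had 326.7 and 354.7 against 220.5 to 280.8. These 5 features shared small differences, of 1.3-fold to 1.45-fold on the log2(value + 2) scale.

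F6 and F7 had few reads. F6 had 57.4 and 49.3 at 0 h and 7.6 to 31.5 in stimulated cells. F7 had 143.5 and 35.2 at 0 h and 4.9 to 32.9 in stimulated cells, so the unstimulated pair again stood far apart, with the first high, as in F1. DESeq2 called F7 (adjusted p = 0.0171) and edgeR did not (adjusted p = 0.164). In 29 of 31 alternatives F7 was not called. Its pooled log2 change was -1.84, against -2.82 with KO 0 h replicate 2 left out and -0.85 with KO 0 h replicate 1 left out. All 8 of F1 to F8 had both KO libraries of 0 h above both WT libraries of 0 h. Over all tested features this was so for 19.5%. The median log2 difference of KO from WT in F1 to F8 was 0.35 at 0 h and -0.08 in stimulated cells. Since the high KO values of 0 h were part of how these features were chosen, this is a description only.

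**Figure D2:**
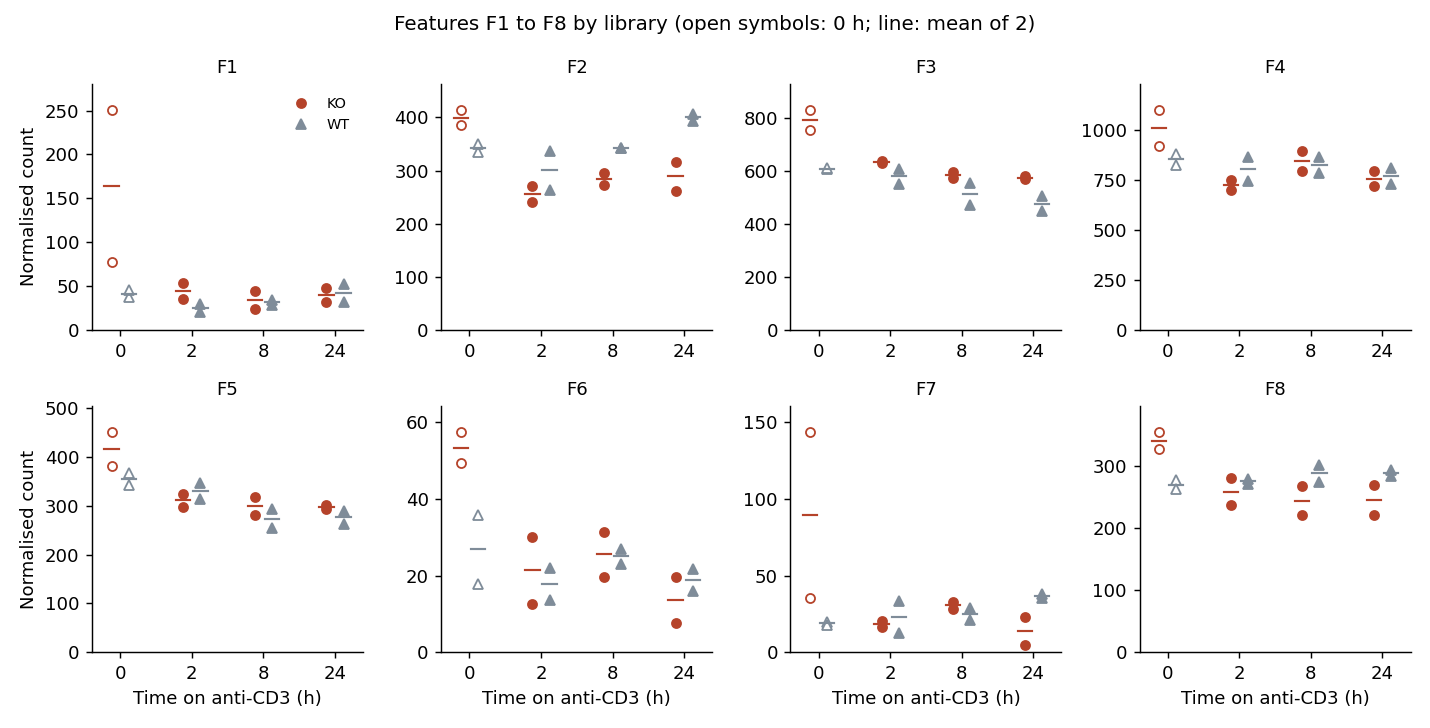
Normalised counts (vertical axes, from 0) of the 8 features F1 to F8 by hours on anti-CD3, drawn as for R1 to R8. The open circles, KO at 0 h, lie above every other KO library and above both WT libraries of 0 h in each panel, and in F1 and F7 they are far apart from each other.

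Over all features the pooled KO changes were small and balanced. The median log2 change was -0.0023 and the median absolute log2 change 0.14, and 49.5% of features had a change above 0. Among the 6689 features with a mean of at least 100, 90% lay between -0.26 and 0.27. At this level the median standard error was 0.13, so that the 95% confidence interval of a typical feature reached 1.21-fold in either direction. In features with a mean under 20 it reached 2.03-fold, so that smaller changes could not be told from 0 in a typical feature of that level. These intervals are not adjusted for the number of features, so larger changes could also go uncalled. R3, at 1.75-fold and a mean of 193, was not called. With the error taken from the same fit, the WT libraries gave 130 called features (1.09% of those tested, 109 higher and 21 lower), of which 104 had a mean of at least 100. That count was 81 with WT 0 h replicate 2 left out and 86 with WT 24 h replicate 1 left out.

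**Figure D3:**
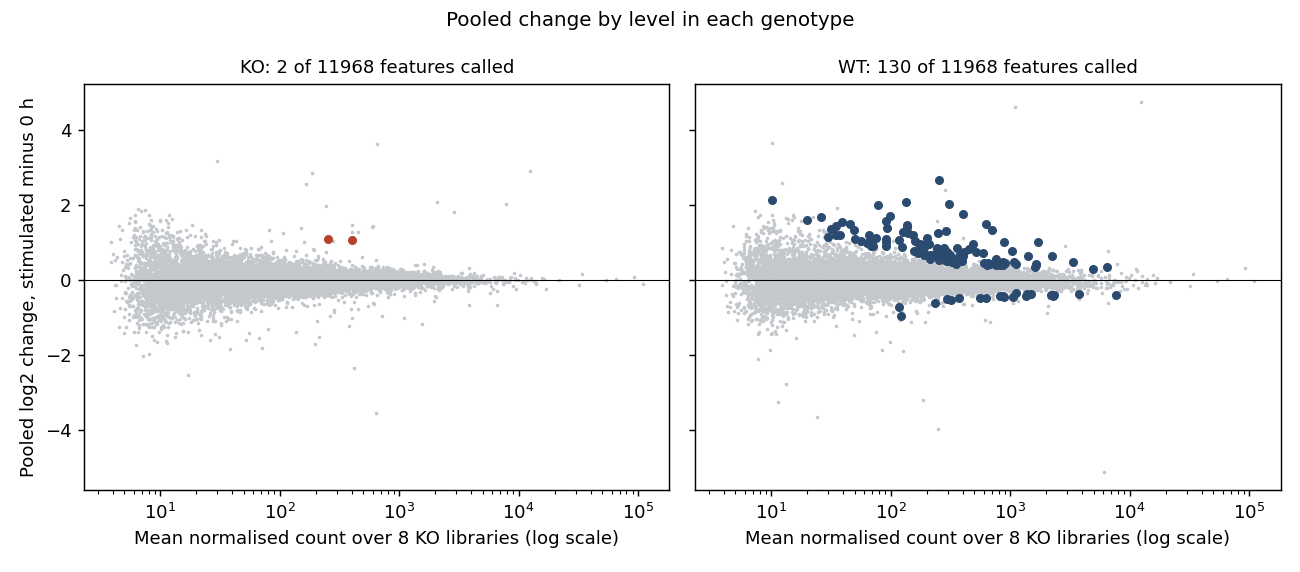
Pooled log2 change on antibody (vertical axis) against the mean normalised count over the 8 KO libraries (horizontal, log scale), with a point for each of 11968 features and filled circles for those called by limma, in KO on the left and WT on the right. The KO panel holds 2 called features and the WT panel 130, most of them above 0, and several large KO changes at high levels are uncalled.

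Large pooled differences in KO came mostly from features that varied within groups. Of the features with a mean of at least 100, 29 differed at least 2-fold between stimulated and unstimulated KO cells, 19 higher and 10 lower. Of these, 27 had a pair of libraries of the same group that differed at least 2-fold, against 2.12% of all features at this level. The median of the largest difference within a pair was 24.5-fold, and the 2 that were left are R1 and R2. The largest upward difference had 5.52 and 16.9 before stimulation, then 3.42 and 1122 after 2 h, 19.6 and 1521 after 8 h, and 2537 and 19 after 24 h, with a pooled change of 3.64 ± 3.07 on the log2 scale (SE; limma adjusted p = 0.931). The largest downward one had 41.9 and 4797 at 0 h and 22.8 to 58.9 in stimulated cells, so 1 library set its change of -3.55 ± 1.4 (SE; limma adjusted p = 0.738).

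Such single high libraries were spread over the samples. In 16 features with a mean of at least 100, the highest KO library was at least 4 times the next highest, and 11 of these were among the 29 with a pooled difference of 2-fold. The high library was the second of 0 h in 3 of the 16, the first of 2 h in 3, the second of 2 h in 3, the first of 24 h in 3, the second of 8 h in 2, and the first of 8 h and the second of 24 h in 1 each. In WT, 35 features of this level differed at least 2-fold, 18 were called, and the median of the largest difference within a pair was 1.8-fold.

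The order of the libraries gives a count that needs no model. In KO, 898 features or 7.5% had all 6 stimulated libraries on one side of both unstimulated ones, 483 above (4.04%) and 415 below (3.47%). Of the 483, 60 passed the filter with no 0 h library at 10, and of the 415, 13 passed it with no stimulated library at 10. In WT, 1066 features or 8.91% had this order, 568 above (4.75%) and 498 below (4.16%). The share in KO was 7.25% for features with a mean under 20, 7.5% from 20 to 100, 7.35% from 100 to 500, and 8.12% at 500 or more, so it changed little with level. The count describes the order of the libraries, and no response is read from its size.

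The WT libraries, which took no part in choosing these features, gave a reading of them in separate samples. The 483 features above in KO had a median log2 change of 0.35 in KO and 0.07 in WT, and 64.2% of them had a WT change above 0, against 50.3% of all tested features. Among them 50 were also above in all WT libraries, which is 10.4% of the 483 and 8.8% of the 568, against 4.75% of all features above in WT and 4.04% above in KO. Another 7 of the 483 were below in WT, or 1.45%, against 4.16% of all features. The 415 features below in KO had medians of -0.40 in KO and -0.05 in WT, and 60.2% had a WT change below 0, against 49.7% of all. Of these, 27 were also below in WT, or 6.51% of the 415 and 5.42% of the 498, against 4.16% of all features below in WT and 3.47% below in KO. Another 17 of the 415 were above in WT, or 4.1%, against 4.75% of all features. Across features the pooled KO and WT changes had a Pearson r of 0.10 and a Spearman rho of 0.10 over all 11968, and 0.16 and 0.14 over the 6689 of higher level. Genes are not independent replicates, and noise lowers these values.

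R1 to R8 and F1 to F8 were ranked by p-values whose error was estimated over all 16 libraries. The WT libraries thus had a part in their choice. Of R1 to R8, 4 were called higher in WT as well, namely R1 to R4. In WT 0.911% of all features were called higher, and 83 of the 6689 with a mean of at least 100. R1 had 88 and 106.7 in WT at 0 h and 463 to 825.2 in the stimulated WT libraries, with a WT log2 change of 2.66 ± 0.14 (SE; adjusted p from limma 4.92e-14). R2 had 166.3 and 208.5 at 0 h and 322.8 to 1089.5 on antibody, a log2 change of 1.77 ± 0.17 (SE) in WT. R3 had 125.9 and 130.9 against 189.6 to 265.9, a WT change of 0.90 beside 0.81 in KO, and R4 had 85 and 114.8 against 165 to 391.9, a WT change of 1.46 beside 0.76. R5 to R8 were not called in WT, where their log2 changes were -0.07, -0.28, 0.19 and 0.36. None of F1 to F8 was called in WT, where 0.175% of all features were called lower. Of the 8, 5 had a WT change below 0, against 49.7% of all tested features. Their median change was -0.16 in WT beside -0.49 in KO.

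Whether the pooled response differed between the genotypes was tested by the difference of the 2 changes. It was called for 14 features (0.117% of those tested), in 13 of them (0.109%) with a lower value in KO and in 1 (0.00836%) with a higher value. DESeq2 called 37, of which 28 were lower and 9 higher, and edgeR called 15. With WT 0 h replicate 2 left out 24 were called, 16 lower and 8 higher. With WT 24 h replicate 2 left out 23 were called, 19 lower and 4 higher, and with WT 0 h replicate 1 left out 18 were called, 13 lower and 5 higher. All 13 features with a lower value had a WT change above 0 that was itself called, with a median of 1.31, while their KO changes had a median of 0.02 and ran from -0.35 to 1.09. These 13 were chosen on the difference of the same values, so this split between WT and KO is a description only. The only one of the 13 that was called in KO was R1. Its response was 2.13-fold in KO and 6.34-fold in WT, a log2 difference of -1.57 ± 0.2 (SE; limma adjusted p = 8.92e-05). R2 had a difference of -0.70 ± 0.24 (SE), which was not called (limma adjusted p = 0.514), and for R3 the values were -0.09 ± 0.23 (SE).

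The next 3 features by the strength of this difference are called Q2, Q3 and Q4. Q2 had 1617 and 1791.7 in KO at 0 h and 1432.3 to 2065.4 in the stimulated KO libraries, which enclose the 0 h values. In WT it had 1369 and 1635.7 before stimulation, then 1620 and 1489.1 after 2 h, 2985.4 and 3115.8 after 8 h, and 6175 and 5414.6 after 24 h, a difference of the pooled responses of -1.01 ± 0.13 (SE; limma adjusted p = 8.92e-05). Q3 had a like pattern, with 575.2 to 858 in the stimulated KO libraries around 622.5 and 726.2 at 0 h, and 3472.5 and 3585.7 in WT at 24 h, a difference of -1.27 ± 0.17 (SE). Q4 had 101.5 and 109.8 in KO at 0 h and 124.3 to 179 on antibody, so that the groups did not overlap, against 73.7 and 116.4 and then 262 to 607 in WT. Its pooled log2 change was 0.43 ± 0.17 (SE; limma adjusted p = 0.639) in KO and 2.07 ± 0.17 in WT, a difference of -1.64 ± 0.24 (SE; limma adjusted p = 0.000312).

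**Figure D4:**
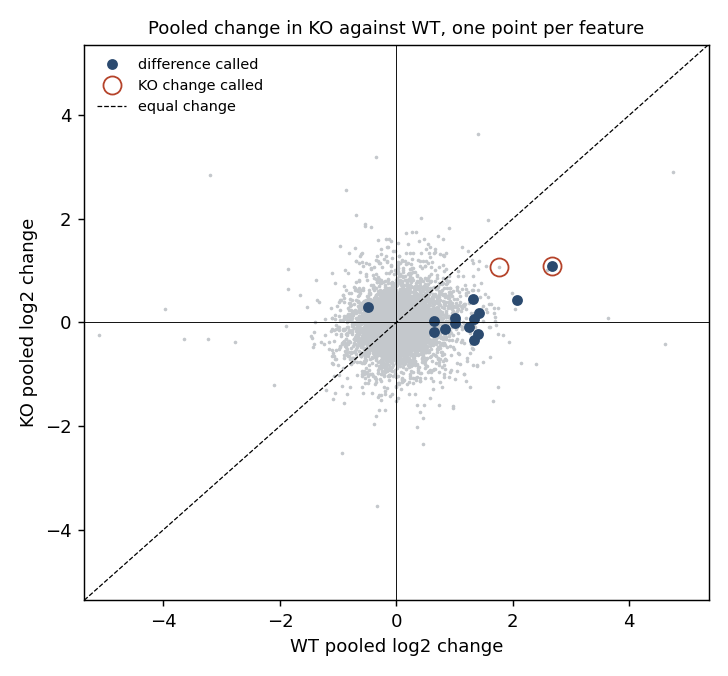
Pooled log2 change in KO (vertical axis) against that in WT (horizontal axis), with a point for each of 11968 features, filled circles for the 14 whose difference was called, open circles for the 2 called in KO and a dashed line where both changes are equal. Of the filled circles 13 lie at WT changes of 0.65 to 2.66 with KO changes of -0.35 to 1.09, below the dashed line.

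Features called in WT, read in the KO libraries, lay nearer to 0. The 109 features called higher in WT had a median pooled log2 change of 0.14 in KO beside 0.82 in WT, with 74 of them above 0 in KO and 25 above in all 6 stimulated KO libraries. That is 22.9% of the 109, against 4.04% of all tested features. For the 21 that WT called lower the medians were -0.05 in KO and -0.43 in WT, and 13 were below 0 in KO. None of these 130 features had a larger change in KO than in WT, an outcome that choosing them on their WT values favours. Features chosen on KO values leaned the other way. The change was larger in KO in 392 of the 483 features above in KO and in 348 of the 415 below. The WT medians of the 130 are likewise raised by the choice. The difference between the KO and WT changes was called in 14 of the 130, against 0.117% of all tested features. The choice favours this count too, since the difference uses the same WT values. The WT libraries held 2726097 to 10229138 reads and the KO libraries 2065662 to 5907998. The part of depth in this result was not tested.

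Pooling can hide features that moved at only 1 of the times, and few such features were found. The joint test of 2, 8 and 24 h against 0 h called 2 features in KO (0.0167%), with 791 at an unadjusted p under 0.05. Leaving out any of the 8 KO libraries raised this count, to between 4 (KO 24 h replicate 1) and 19 (KO 8 h replicate 2). One was R1 (limma adjusted p = 0.00216). The other, named T1, had 28.7 and 28.1 before stimulation, then 39.9 and 29.4 after 2 h, 2.18 and 2.86 after 8 h, and 33.3 and 11.4 after 24 h (limma adjusted p = 0.00649). The low values of 8 h rest on 1 and 2 reads, in the KO libraries with the fewest reads in all. T1 was also the only feature called among the 3 stimulated times (0.00836%; limma adjusted p = 0.0133), a test that contrasts no library of 0 h. Leaving out any stimulated KO library raised that count too, to between 3 (KO 24 h replicate 1) and 21 (KO 8 h replicate 2), while edgeR called 0, with 625 at an unadjusted p under 0.05.

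The next features by that test, T2 to T4, were not called, with limma adjusted p of 0.18 to 0.443. T2 and T4 shared the pattern of T1. T2 had 0 and 1.43 at 8 h against 3.42 to 29.4 at the other stimulated times, and T4 had 0 in both libraries of 8 h, where 3 reads would be 6.55 and 4.29 normalised counts, against 7.99 to 11.4. T3 had 45.6 and 27.9 at 24 h and 78.6 to 107 at 2 and 8 h. For features near these levels a library without reads cannot be told from one with up to 3 reads.

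As whole profiles, stimulated and unstimulated KO libraries lay at distances like those between libraries of the same group. Over the 6689 features with a mean of at least 100, the root mean square log2 difference between the libraries of a group was 0.37 to 0.43 in the 4 KO pairs, with a median of 0.39. Between a 0 h and a stimulated KO library it was 0.31 to 0.40 over 12 pairs, with a median of 0.37, and between different stimulated times it was 0.30 to 0.41, with a median of 0.38. In WT the same quantities had medians of 0.33, 0.38 and 0.37, with a highest value of 0.49 between 0 h and stimulated libraries. None of the 8 KO libraries had the other library of its own group as its nearest neighbour, and in WT 3 of the 8 had. Libraries of the same group always carry different replicate numbers. Among KO pairs with different numbers the median was 0.38 over 6 pairs of a 0 h and a stimulated library (0.35 to 0.40), beside the 0.39 within groups, and 0.36 over the 6 pairs with equal numbers. Depth enters these differences, and its part was not tested.

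**Figure D5:**
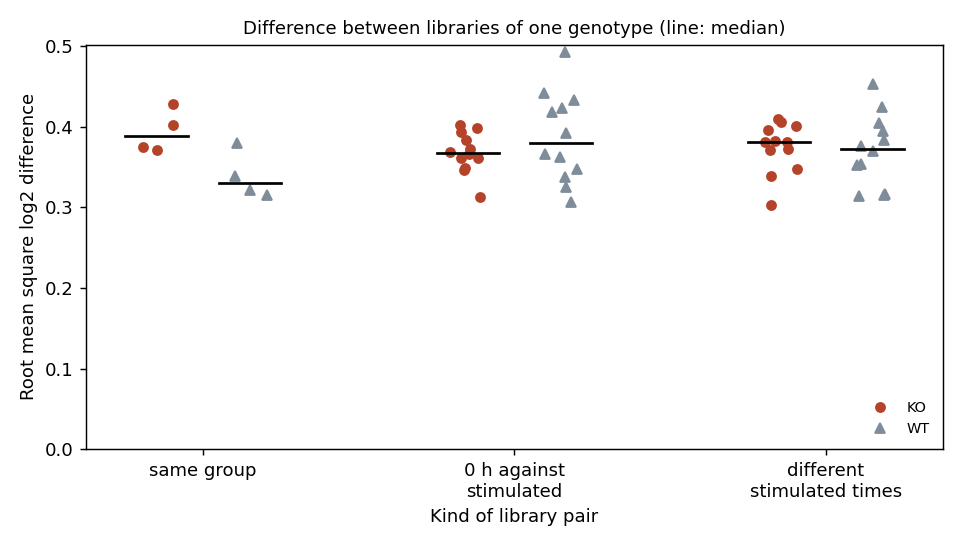
Root mean square log2 difference between 2 libraries of a genotype (vertical axis, from 0) over 6689 features, by kind of pair, with a point for each pair, circles for KO, triangles for WT and a line at the median. The KO pairs of the same group, at 0.37 to 0.43, lie as high as the KO pairs of 0 h against stimulated cells, at 0.31 to 0.40.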

How the data were processed

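RNA-seq libraries (8 KO, 8 WT) were grouped by their titles. STAR 2.6.0a, HTSeq, DESeq2 and build GRCm38.p6 are named in the submitters' processing notes. The annotation, counting settings and strand are stated in none of the sources used here. Although headed as counts, the values the authors deposited are a normalised signal. Divided by the value of 1 read, 100% of non-zero values came out as whole reads within 0.01 reads, and the origin of the factor is not given in the sources used here. One of 2 identical rows was removed, leaving 27802 features. The libraries of a KO pair differed by more than sampling noise (chi-square of 4.92 to 15.8 per degree of freedom).

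The fit used limma 3.58.1 (R 4.3.3) on log2(value + 2), with its trend and robust options, a pseudocount that makes changes of low features look smaller. One mean for each of 8 groups over all 16 libraries left 8 residual degrees of freedom. P-values are two-sided and adjusted by Benjamini-Hochberg over all 11968 features. edgeR 4.0.16 and DESeq2 1.42.0 ran on the recovered reads. Other alternatives changed the libraries, scaling, filter, pseudocount, depth, weights, block and times. Functions were tested on simulated data. R1 to R8 and F1 to F8 are called features, in order of change, then others in order of p, whose KO groups do not overlap and whose KO mean is at least 20. Q and T features have the 4 smallest p-values of their tests, and Q1 is R1. Members, lists and rules were chosen with earlier results of these data known. Plots used Python 3.11.15 and matplotlib 3.10.9.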

Additional observations from a re-analysis of the deposited data

Results flagged for a closer look

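The value of R1 in the first KO library of 2 h, 420, stood apart from the other 5 stimulated KO libraries, of which the next was 297.5, by a gap of 0.665 of their range. In the same library R3 had 300.2, and the next value was 217.4. These libraries span 3 times. Of 16 features looked at in this way 2 stood apart, and chance gives about 1 in 20.

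In 14 features the pooled response of KO was called different from that of WT. The log2 difference of KO minus WT was -1.57 for R1, -1.01 for Q2, -1.27 for Q3 and -1.64 for Q4.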

How the results depend on the processing

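The pooled KO count of 2 was 5 with the 8 KO libraries alone, 4 with these as 2 groups, 6 with DESeq2 and 4 with the filter at 50. It was 1 when thinned to one depth, with library weights, without the 8 h libraries and without the 24 h libraries. Leaving out each library gave 1 to 15 for this count, 2 to 19 for the joint test against 0 h, 1 to 21 for the test among stimulated times, 81 to 152 for the pooled WT count, 11 to 24 for the difference and 1120 to 3597 for features on one side of 0 h. Of the 11968 tested features, 3597 were on one side with KO 0 h replicate 1 left out and 3200 with replicate 2 left out, since fewer libraries have to be ordered. Leaving out KO 8 h replicate 2 gave the joint count of 19 and the count of 21 among times. Leaving out WT 0 h replicate 2 gave the WT count of 81 and the difference count of 24, WT 24 h replicate 1 gave 86 and WT 24 h replicate 2 gave 23. The joint test called 19 with DESeq2 and 4 with a pseudocount of 0.5. The test among times called 7 with DESeq2, 3 with a pseudocount of 0.5, and 0 with edgeR (625 at an unadjusted p under 0.05) or with the 8 KO libraries alone (583). The difference called 37 with DESeq2. Features on one side numbered 1558 without 2 h, 1756 without 8 h and 1690 without 24 h, of 11968 tested. Here too fewer libraries have to be ordered, so no effect of time is read from these counts. Other causes were not tested. None of R1 to R8 and F1 to F8 changed sign in any alternative.

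Replicate numbers 1 and 2 are shared by the groups, but the labels do not say that they mark a mouse or a day. With the replicate block over 16 libraries the pooled KO count was 1. A replicate block within the 8 KO libraries, chosen after seeing the data, gave 7 (5 higher, 2 lower), with 10 in the joint test and 4 among times, and called R3 (limma adjusted p = 0.031) and R5 (0.009). Deviations of equal numbers correlated with r of 0.04 to 0.16 over 6 pairs of KO groups, 3 of them over 0.1. Each of the 8 KO libraries was nearest to a library of its own number, against 1 of the 8 WT libraries.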
